A study of Mus musculus with 3 samples.

Results

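A set of 9 myelin genes of the mouse, Mbp, Mobp, Mog, Mag, Cldn11, Mal, Ermn, Opalin and Ugt8a, were followed through 1 single-cell RNA library. They are 9 of the 21750 features of its count table, were chosen by symbol, and each symbol had 1 row. The library came from the hippocampi of 5 pooled Aldh1l1CreERT2;Rosa26-LSL-tdTomato mice. All had received AAV-TIGRi-Hopx, a Cre-dependent vector that represses Hopx and carries EGFP, and were sampled 3 weeks after tamoxifen. Cells were sorted for tdTomato and EGFP, and the Cre driver is active mainly in astrocytes. The library was alone in its group, its barcodes do not tell the mice apart, and the series gives it no control library. Values therefore have no replicate check, and every interval is an exact 95% interval that covers counting error only. The anti-Flag and IgG chromatin samples of primary astrocytes were not analysed here.

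Myelin is the multilayered membrane that oligodendrocytes wrap around axons. Its proteins have separate places in the sheath: basic proteins lie between the cytoplasmic faces, adhesion and immunoglobulin-like proteins sit at its inner and outer surfaces, and claudin and lipid-raft proteins organise its lamellae. In droplet sequencing, RNA that is free in the suspension is captured with every cell, so a transcript can be counted in a cell that does not make it. RNA released from a single source adds its genes to other cells in a fixed proportion.

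Among the stretches upstream of these genes, those of Mobp and Opalin are shown because these genes gave opposite patterns outside oligodendrocytes, Mobp being counted in every large cell type and Opalin in almost none. Capitals mark ACAAAG or its reverse complement CTTTGT, the core sequence bound by SOX factors, a family that includes the oligodendrocyte factor Sox10. Both are the 250 bases before the RefSeq start, written 5′ to 3′ on the gene's strand in build GRCm38.p6. The Mobp stretch is on the plus strand at chr9:120149492-120149741, and the Opalin stretch is on the minus strand at chr19:41077114-41077363.
Mobp: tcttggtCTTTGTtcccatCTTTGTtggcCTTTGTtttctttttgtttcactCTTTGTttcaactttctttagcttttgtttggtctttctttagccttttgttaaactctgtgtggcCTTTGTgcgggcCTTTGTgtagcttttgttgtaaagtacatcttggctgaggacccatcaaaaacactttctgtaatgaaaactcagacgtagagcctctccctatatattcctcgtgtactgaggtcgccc
Opalin: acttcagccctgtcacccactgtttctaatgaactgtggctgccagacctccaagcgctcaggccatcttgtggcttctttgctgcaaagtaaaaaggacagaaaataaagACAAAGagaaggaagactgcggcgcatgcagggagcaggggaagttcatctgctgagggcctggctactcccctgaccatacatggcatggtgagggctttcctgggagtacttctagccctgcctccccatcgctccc
The Mobp stretch held 6 matches and the Opalin stretch 1. Of 32851 RefSeq promoters of that length, 16.5% held at least 1 match on either strand, and the 1 promoter with as many as 6 was that of Mobp. RefSeq entries were found for 8 of the 9 genes (10 entries), and 4 of these entries held a match. A match is a description of the letters only, and no binding was measured.

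Of 6672 barcodes, 6485 with at least 500 genes and at most 15% mitochondrial UMIs were kept, where a UMI is 1 counted RNA molecule. They had a median of 5564 UMIs (610.0 to 42440). Each gene was judged in barcodes that held 3 or more of the other 8, so that no gene chose its own cells. Cell types were gated on markers outside the list: 2340 microglia, 1551 endothelial, 666 ependymal, 624 choroid plexus, 267 border macrophage and 135 astrocyte cells, and 4 types of 21 to 29 cells. No gate took 787 barcodes, and the other 12 were in 3 types not used. Scrublet called 261 barcodes (4.02%) as doublets, which were kept here.

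The number of myelin genes per barcode fell into separate ranges. None of the 9 was detected in 2862 barcodes, 1 in 2599, 2 in 764, 3 in 158 and 4 in 10. No barcode held exactly 5, whereas 1 held 6, 4 held 7, 23 held 8 and 64 held all 9. The 92 barcodes with 6 or more had a median of 11 of 12 other oligodendrocyte markers such as Cnp and Sox10, and the lowest of them had 4. The 168 barcodes with 3 or 4 had a median of 0 such markers, and 7 of them had 3 or more, as did 26 of the 6225 with fewer than 3 genes. Of these 168, 104 were gated as endothelial and 27 as microglia, and 112 held precisely Mbp, Mobp and Mal. The label oligodendrocyte was thus met by the 92 barcodes, and not by most of those admitted on 3 other myelin genes alone. Of the 92, 84 met no gate, while 6 were gated as microglia, 1 as ependymal and 1 on precursor markers. Scrublet called 6 of the 92 doublets, and these were kept. Requiring 5 others in place of 3 gave the same 92 barcodes for every gene. This stricter set, chosen after the data were seen, is used below unless stated.

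**Figure D1:**
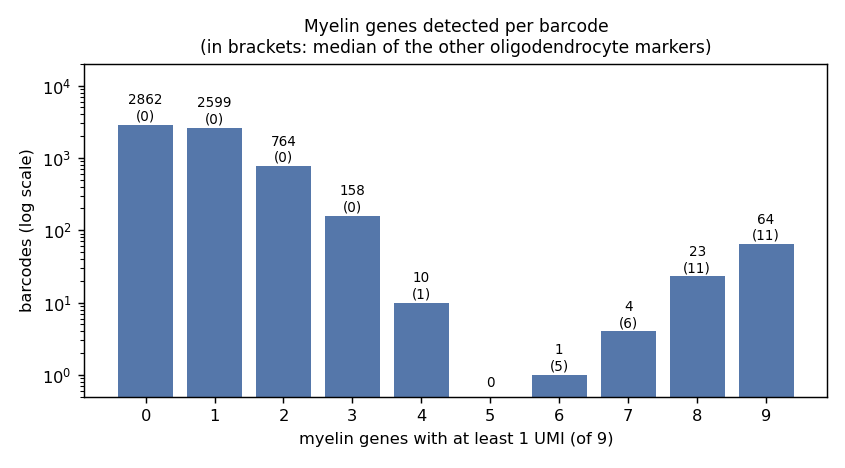
Number of the 9 myelin genes with at least 1 UMI (horizontal axis) against the number of barcodes (vertical axis, log scale), with the count above each bar and, in brackets, the median number of 12 other oligodendrocyte markers. The bars fall to 0 barcodes at 5 genes, and the 92 barcodes to the right of that gap had a median of 11 of these markers. To its left, 7 of 168 barcodes with 3 or 4 genes and 26 of 6225 with fewer than 3 held 3 or more of them.

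In the 92 oligodendrocytes, which had a median of 6684 UMIs, the 9 genes together gave 20588 UMIs per 1000000 UMIs of these cells (CPM), against 13161 CPM with 3 others required. The basic proteins were present throughout. Mbp, which holds the cytoplasmic faces of the sheath together, stood at 3804 CPM (3663 to 3949) with a UMI in 92 of 92 cells. Mobp, a second basic protein of compact myelin, stood at 2411 CPM (2299.6 to 2527) in 89 of 92. Per cell, Mbp ranged from 4 to 125 UMIs with a median of 27, and Mobp from 0 to 66 with a median of 16. Their detection was nearly complete despite that range.

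Of the surface proteins, Mag, a sialic-acid-binding adhesion molecule of the membrane facing the axon, stood at 2240.2 CPM (2133 to 2352) in 90 of 92 cells. Mog, an immunoglobulin-like protein of the outermost surface, stood at 1378 CPM (1293 to 1466) in 91. The membrane organisers Mal, a proteolipid of lipid rafts, and Cldn11, the claudin of the junctions between lamellae, stood at 6037 CPM (5859.8 to 6219) in 92 and 1445 CPM (1359 to 1535) in 90 cells. Mal had the widest span of the 9 per cell, from 1 to 504 UMIs with a median of 39. These are counts of transcript 3′ ends, so their order between genes is not read as an order of expression.

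The remaining members include an enzyme of myelin lipid. Ermn, a cytoskeletal protein of mature oligodendrocytes, stood at 1909 CPM (1809.7 to 2012) in 89 of 92 cells, and Ugt8a, which makes the galactolipid galactocerebroside, at 810.2 CPM (746 to 879) in 88. Opalin, a transmembrane protein of the oligodendrocyte, stood at 553 CPM (501 to 610.4) and was detected in 73. Per cell, Opalin ranged from 0 to 47 UMIs with a median of 3. Over the 92 cells of this library, Pearson r between pairs of the 9 genes (log2 of CPM plus 100) had a median of 0.23 over 36 pairs, from -0.14 for Opalin with Ugt8a to 0.58 for Mal with Opalin, with depth shared by every pair.

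The 92 cells carried few marks of other stages or of the sort. The precursor marker Pdgfra was detected in 0 of 92 and the committed-precursor marker Gpr17 in 2. EGFP was detected in 5 and tdTomato in 4. C1qa, a complement gene of microglia, was detected in 32 with 651 UMIs in all, and its part in the myelin values was not tested.

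The genes differed in how much of their RNA lay inside these cells. Of all UMIs of a gene in kept barcodes, the 92 oligodendrocytes held 99.3% for Opalin, 97.8% for Mog, 97.5% for Ugt8a, 95.1% for Ermn and 94.4% for Cldn11. They held 78.8% for Mag, 64.8% for Mobp, 43.0% for Mbp and 31.4% for Mal. So most Mbp and Mal molecules of the library were counted outside the cells that held the other myelin genes.

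All 9 genes were at least 8-fold higher in CPM in oligodendrocytes than in the other gated cells. That call was met by 612 of 15235 genes (4.02%), and the median ratio over all of these genes was 0.774. Opalin had the highest ratio of the 9, 10156 (2793 to 84150), and Mal the lowest, 24.6 (23.7 to 25.5). Mbp stood at 44.6 (42.3 to 46.9), Mobp at 109 (100.2 to 119), Mag at 219 (196 to 246), Ermn at 1148 (888 to 1509.6), Cldn11 at 1205 (891 to 1669), Mog at 2661 (1695 to 4438) and Ugt8a at 2973 (1605 to 6233). The genes are known markers of the cell type, so the direction was fixed by their choice, and the spread between them is what the values add.

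**Figure D2:**
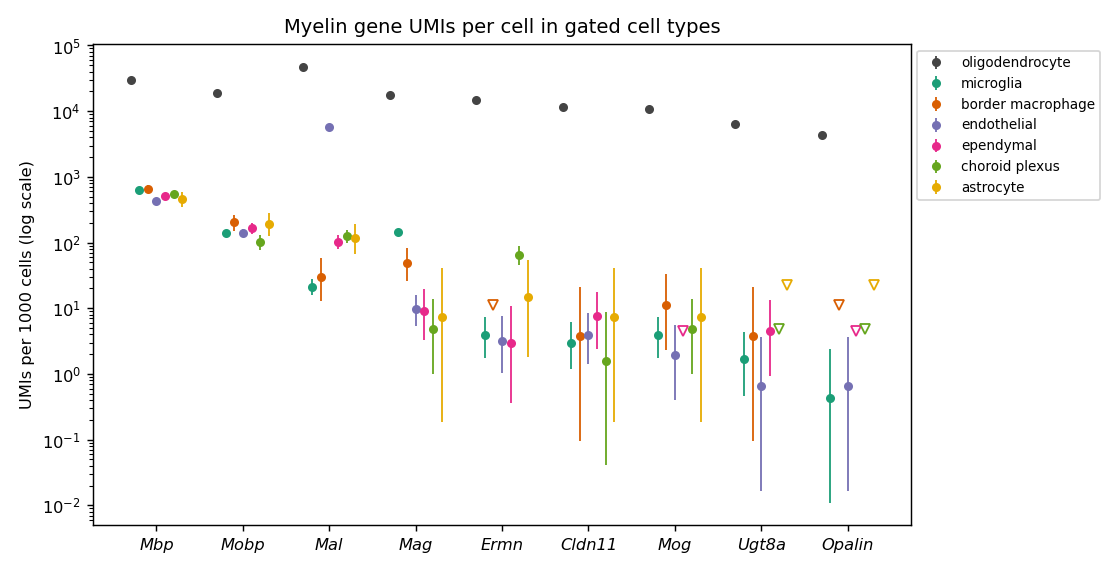
UMIs per 1000 cells (log scale) of each myelin gene in oligodendrocytes and the 6 gated types of 100 or more cells, with exact 95% Poisson intervals; open triangles mark 0 UMIs at the level that 3 UMIs would give. Mbp runs from 431 to 659 and Mobp from 101 to 202 across the 6 types, while Mal stands at 5669.9 in endothelial cells and Mag at 144 in microglia. Depth differs between the types.

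In the other cell types, UMIs per cell were set against those in oligodendrocytes, and the median of the 9 genes' ratios within a type served as the common ratio. This median was 0.000355 in microglia, 0.00034 in endothelial cells, 0.00063 in border macrophages, 0.000661 in ependymal cells, 0.000443 in choroid plexus cells and 0.000683 in astrocytes. A gene at this median was counted in the type in the same proportion to its oligodendrocyte level as the middle one of the 9 genes. That middle gene had few UMIs: 9 of Mog in microglia, 6 of Cldn11 in endothelial cells and 8 of Mal in border macrophages. It had 5 of Cldn11 in ependymal cells, 3 of Mog in choroid plexus cells and 1 of Mog in astrocytes. The calls and multiples below take the median as known and leave out its counting error.

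A gene was called above the common ratio in a type where its own ratio was at least 3 times that median and the interval lay above it. Over all 10 types and with 3 others required, 27 of 90 pairs of gene and type were above. Over all genes with at least 1 UMI per oligodendrocyte, most of which other cells also express, 92.5% of 16150 pairs were. All shares of all genes were computed against the common ratios with 5 others. In the large types these are lower than those with 3 others, for example 0.000355 against 0.000721 in microglia. Since the line is the median of the 9 genes themselves, at most 4 of the 9 can pass in a type, so their counts cannot be read against these shares of all genes. In 3 of the 4 small types the median was 0, so any gene whose count was not 0 passed there. In the 6 types of 100 or more cells, 17 of 54 pairs were above (19 of 54 with 5 others), where the share of all genes was 94.8%. This restriction was made after the counts were seen. Mbp and Mobp were above in all 6 types, Mal in 4 with 5 others (endothelial, choroid plexus, ependymal and astrocyte) and in the first 2 of these with 3 others, Mag in microglia and border macrophages, and Ermn in choroid plexus. The astrocyte line with 5 others was set by 1 Mog UMI, with a ratio interval of 1.73e-05 to 0.00381. Mal's ratio in astrocytes, 0.00249 (0.00142 to 0.00405), lay inside that interval, so this call does not stand beyond counting error. Type by type, the share of all genes above was 97% in ependymal cells, 95.7% in astrocytes, 91% in border macrophages and 81.5% to 95.3% in the 4 small types. In cells thinned to 2000 UMIs, Mag in border macrophages and Mal in choroid plexus were not above with 3 or with 5 others, and with 5 others Mal in astrocytes was not above either. Mog, Cldn11, Opalin and Ugt8a were above in none of the 6.

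**Figure D3:**
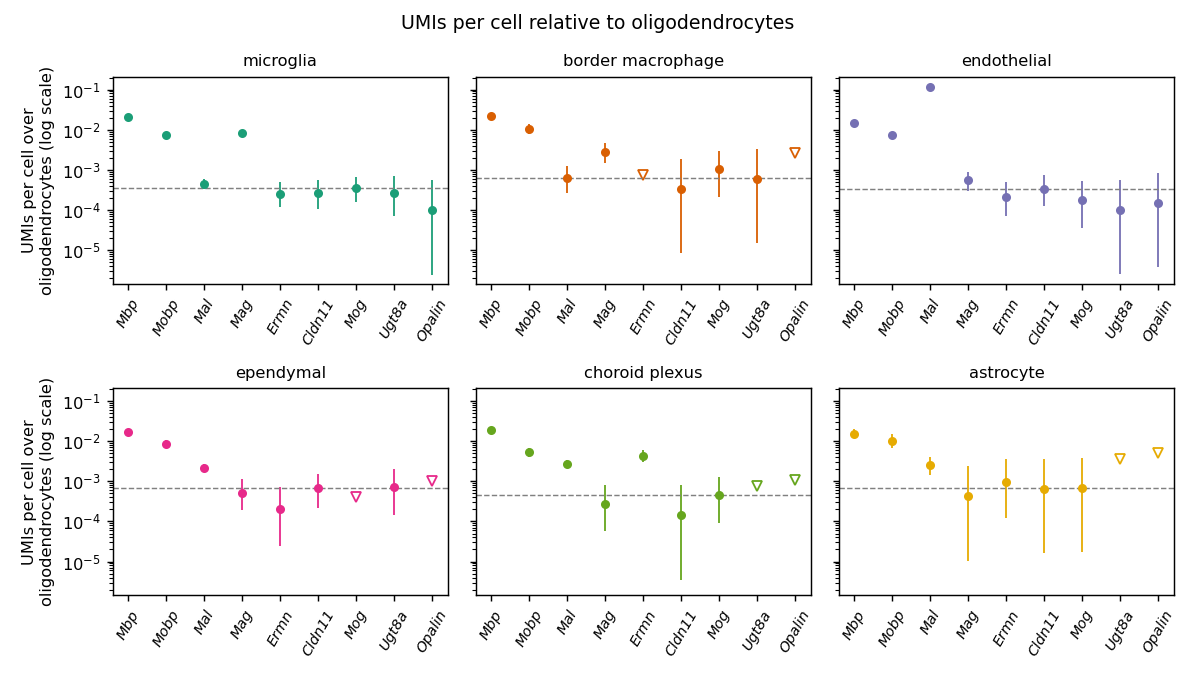
Ratio of UMIs per cell in each of 6 gated types to that in oligodendrocytes (log scale) for the 9 genes, with exact 95% intervals; open triangles mark 0 UMIs at the ratio of 3 UMIs and dashed lines the median of the 9 genes. Mog, Cldn11 and Ugt8a lie near the line in microglia, where Mbp stands at 0.021 and Mag at 0.00816.

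The basic protein genes were counted in every large type. Mbp had 631 UMIs per 1000 microglia (599 to 664), 659 (565 to 764) in border macrophages, 556 (499 to 618) in choroid plexus, 513 (460 to 570.2) in ependymal, 459 (352 to 589) in astrocyte and 431 (399 to 465) in endothelial cells. The 6 levels were 0.0144 to 0.022 of that in oligodendrocytes. Their order depended on depth. At 2000 UMIs per cell, Mbp came to 303 UMIs per 1000 border macrophages (239 to 379), 270.0 (178 to 393) in astrocytes, 233 (208 to 261) in endothelial cells, 196 (179 to 215) in microglia, 160.1 (130 to 195) in ependymal and 127 (100.4 to 159) in choroid plexus cells, so that choroid plexus, the deepest type, was lowest. Mobp had 139 UMIs per 1000 microglia (124 to 155), 202 (152 to 264) in border macrophages, 193 (126 to 282) in astrocytes, 164 (135 to 198) in ependymal, 142 (124 to 162) in endothelial and 101 (77.6 to 129) in choroid plexus cells. Its ratios, 0.00532 to 0.0107, were below those of Mbp in each of the 6 types. At 2000 UMIs per cell, Mobp ran from 16.3 (7.81 to 30.0) in choroid plexus to 140.0 (76.5 to 235) in astrocytes. All 9 genes together gave 942 UMIs per 1000 microglia (903 to 982) with 3 others required, most of them Mbp.

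The proportion of Mbp to Mobp was not that of oligodendrocytes. There were 1.58 Mbp UMIs per Mobp UMI in oligodendrocytes (1.49 to 1.68), 4.54 in microglia (4.03 to 5.14), 5.51 in choroid plexus (4.20 to 7.32), 3.26 in border macrophages (2.39 to 4.51), 3.13 in ependymal (2.51 to 3.92) and 3.04 in endothelial cells (2.60 to 3.55). None of these 5 intervals overlapped that of oligodendrocytes. In astrocytes the value was 2.38 (1.49 to 3.93), whose interval overlapped it. Microglia also lay above endothelial cells, with intervals that did not overlap.

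Mbp counts followed the depth of a cell only in part. From the lowest to the highest depth quartile of microglia, median UMIs went from 4226 to 9964 and Mbp from 479 (425 to 539) to 774 (704 to 849) UMIs per 1000 cells, while its CPM went from 123 (109 to 138) to 72.0 (65.6 to 79.0). In endothelial cells, from a median of 1958 to 6829 UMIs, Mbp went from 304 (252 to 364) to 526 (456 to 603) per 1000 and from 166 (137 to 198) to 67.1 (58.2 to 77.0) CPM. In ependymal cells it stood at 503 (401 to 623) and 524 (420 to 646) per 1000 in the lowest and highest quartiles, with 201 (160.2 to 249) and 44.4 (35.6 to 54.8) CPM. The deepest quartile thus held a smaller share of Mbp than the shallowest in each of these types, and in choroid plexus cells, from 90.1 (69.8 to 114) to 32.4 (26.3 to 39.6) CPM. Mobp in microglia went from 173 (141 to 210.1) to 134 (106 to 167) UMIs per 1000, intervals that overlapped.

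**Figure D4:**
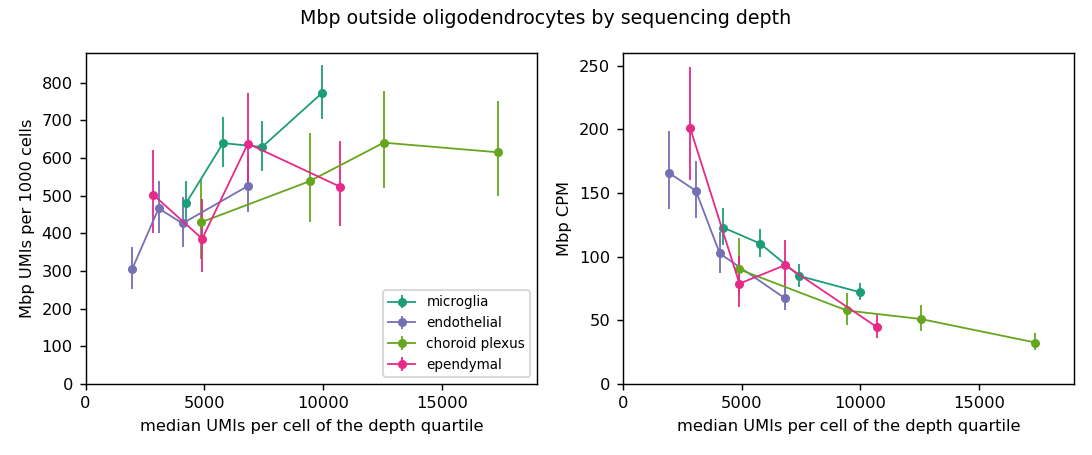
Mbp in depth quartiles of the cells of 4 types, ordered by total UMIs, as UMIs per 1000 cells (left) and CPM (right) against the quartile's median UMIs per cell, with exact 95% Poisson intervals. The CPM is lowest in the deepest quartile of each type, for example 72.0 in microglia, while the UMIs per cell vary less.

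Mobp was more frequent in the cells that held Mbp. Among microglia with an Mbp UMI, 19.3% (153 of 793, 16.6 to 22.2) had a Mobp UMI, against 4.28% (66 of 1541, 3.33 to 5.42) of those without, at median depths of 6947 and 6390.0 UMIs. Among endothelial cells the shares were 32.1% (27.0 to 37.5) and 3.42% (2.48 to 4.60), at 3653 and 3532 UMIs. Ependymal cells showed the same, with 27.9% (21.3 to 35.2) and 5.48% (3.64 to 7.87). Mag in microglia showed no such difference beyond counting error: it was detected in 13.2% (11.0 to 15.8) of those with Mbp and 13.4% (11.7 to 15.2) of those without.

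Some barcodes outside the oligodendrocytes held many Mbp UMIs. There were 29 with 10 or more, a threshold set after the data were seen, and they held 10.9% of the Mbp UMIs outside oligodendrocytes. They were spread over types: 8 microglia, 8 endothelial, 4 ependymal, 2 border macrophage and 2 ungated barcodes, and 1 in each of 5 other types. One, gated on precursor markers, had 54 Mbp UMIs, 4 of the 9 genes and 6 of the 12 other oligodendrocyte markers. The other 28 had 10 to 21 Mbp UMIs each and a median of 1 such marker. They had 344 Mbp, 85 Mobp, 30 Mal, 3 Mag and 2 Mog UMIs in all. Their Mobp came to 24.7 UMIs per 100 Mbp UMIs (19.3 to 31.4), against 63.4 (59.7 to 67.3) in oligodendrocytes. Mog came to 0.581 (0.0701 to 2.12) against 36.2 (33.6 to 38.9), and Cnp, an enzyme of the sheath, to 2.33 (0.996 to 4.63) against 77.2 (72.9 to 81.7). With the barcode of 54 Mbp UMIs, Cnp came to 15.1 (11.3 to 19.8), from 60 Cnp UMIs in place of 8. In the 5653 other gated cells with fewer Mbp UMIs, Mobp came to 26.1 (24.0 to 28.3) and Mog to 0.603 (0.351 to 0.967). These 2 proportions were near those of the 28 barcodes and so were not particular to them. Cnp at 51.5 (48.3 to 54.9), Mag at 13.2 (11.8 to 14.7) and Mal at 319 (306 to 333) were higher in those cells. These 3 values depend on the mix of types, since endothelial cells held 8794 Mal UMIs and microglia 336 Mag UMIs. The 29 barcodes were chosen for high Mbp and fewer than 6 of the 9 genes, so low proportions of the 9 and of Cnp to Mbp follow in part from that choice. The 5653 cells were chosen for fewer Mbp UMIs, so their higher proportions to Mbp follow in part from the same split. Scrublet called 1 of the 29 a doublet.

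**Figure D5:**
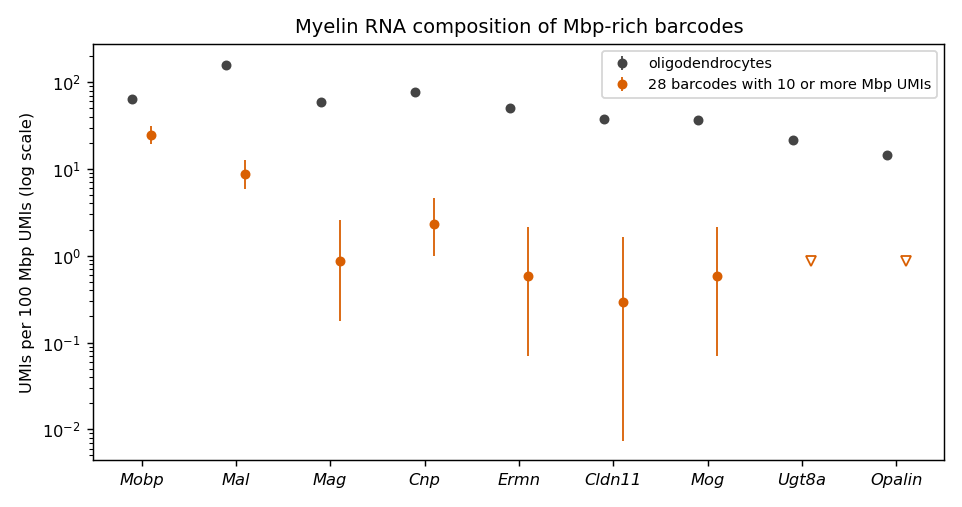
UMIs of myelin genes per 100 Mbp UMIs (log scale) in the 92 oligodendrocytes and in 28 barcodes with 10 or more Mbp UMIs, left after the 1 barcode with 54 Mbp UMIs was set aside, with exact 95% intervals; open triangles mark 0 UMIs at the value of 3 UMIs. Mobp lies at 63.4 in oligodendrocytes and 24.7 in the 28 barcodes, and Mog at 36.2 and 0.581.

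Mal was abundant in a second cell type. Endothelial cells held 8794 Mal UMIs, 63.0% of all, or 5669.9 per 1000 cells (5552 to 5789.7) and 1341 CPM (1313 to 1370). A Mal UMI was found in 87.8% of these cells (86.1 to 89.4), with a median of 4 UMIs per cell, 54 in the highest and 0 in 189 cells. At an equal depth of 2000 UMIs, Mal was found in 80.1% of 1350 endothelial cells (77.8 to 82.2) and 0.654% of 2293 microglia (0.367 to 1.08). The level was 0.119 of that in oligodendrocytes (0.115 to 0.124) and 351 times the common ratio. With 3 others required these were 0.172 (0.166 to 0.178) and 174 times, and at 2000 UMIs per cell with 5 others the value was 827 times. The common ratio behind the 827 was set by 1 Cldn11 UMI in the 1350 cells, so that multiple is very uncertain. The share of genes above the common ratio in endothelial cells was 95.5%.

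Among endothelial cells, Mal was present in every subset placed by markers chosen after the data were seen. It stood at 1809 CPM (1684 to 1941) in 109 arterial, 1849 (1656 to 2058) in 35 venous and 1284 (1253 to 1316) in 1196 capillary cells, with 1337 (1261 to 1416) in 211 unplaced ones. The arterial and venous intervals overlapped, and both lay above that of capillary cells. At full depth, the share of cells with a Mal UMI did not follow that order, at 86.2% (78.3 to 92.1), 88.6% (73.3 to 96.8) and 89.0% (87.1 to 90.8). At 2000 UMIs per cell it was 83.9% (74.8 to 90.7) in arterial, 86.2% (68.3 to 96.1) in venous and 80.4% (77.9 to 82.7) in capillary cells. Those shares followed the order of the CPM, with intervals that overlapped. Mal was much lower elsewhere, with 127 UMIs per 1000 choroid plexus cells (100.2 to 158), 102 (79.4 to 130) in ependymal cells and 21.4 (15.9 to 28.2) in microglia. The choroid plexus value was above the common ratio with all barcodes, at 5 or 3 others, but without the called doublets it was 1.78 times the common ratio and was not (3 others).

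Mag was counted in microglia. It had 336 UMIs in 311 of 2334 microglia, 13.3% of them (11.97 to 14.8) and 144 UMIs per 1000 cells (129 to 160.2). The UMIs were spread thinly: 286 cells held 1 and 25 held 2, and none held more. In border macrophages there were 13 UMIs, 48.7 per 1000 (25.9 to 83.3), and in endothelial, ependymal and choroid plexus cells 9.67 (5.41 to 15.9), 9.02 (3.31 to 19.6) and 4.81 (0.991 to 14.1). At 2000 UMIs per cell Mag was found in 4.23% of microglia (3.44 to 5.14), 0.296% of endothelial cells (0.0808 to 0.757), 0.787% of border macrophages (0.0955 to 2.82) and 0 of 606 ependymal cells, a type in which 3 cells would make 0.495%. The border macrophage value was then 1.25 times the common ratio and not above it. The ratio to oligodendrocytes in microglia, 0.00816 (0.00723 to 0.00918), was 23.0 times the common ratio, and it was 0.0208 (0.0184 to 0.0234) and 28.8 times with 3 others required. In microglia 94.7% of all genes were above it.

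Mag has Cd22, another sialic-acid-binding receptor, as a near neighbour in the RefSeq gene order, with D7Ertd128e between them. Cd22 had 353 UMIs per 1000 microglia. A Mag UMI was found in 14.6% (11.9 to 17.7) of microglia with Cd22 and 12.9% (11.3 to 14.5) of those without, at median depths of 7835 and 6105 UMIs, and the intervals overlapped. Whether reads of 1 gene were assigned to the other was not tested.

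Among the 6 large types Ermn was above the common ratio only in choroid plexus epithelium, while Cldn11 stood apart in fibroblasts. Ermn had 40 UMIs in 34 of 624 choroid plexus cells, 64.1 per 1000 (45.8 to 87.3), against 3.86 (1.76 to 7.32) in microglia and 3.22 (1.05 to 7.52) in endothelial cells. In astrocytes 2 UMIs in 135 cells made 14.8 (1.79 to 53.5), and in B cells 3 in 26 made 115 (23.8 to 337). Both of these intervals overlapped that of choroid plexus. Choroid plexus cells were the deepest, with a median of 10964 UMIs; at 2000 UMIs per cell, Ermn was found in 1.30% of them (0.564 to 2.55), 0.0872% of microglia (0.0106 to 0.315) and 0 of 1350 endothelial cells, where 3 cells would make 0.222%. Its ratio was 9.62 times the common ratio, where 95% of genes were above. Cldn11 had 23 UMIs in 11 of 21 fibroblasts, 0.0962 of the oligodendrocyte level (0.0607 to 0.145) or 0.261 (0.164 to 0.393) with 3 others required, and 1 to 7 UMIs in each of the 6 large types.

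Mog, Opalin and Ugt8a were nearly absent outside oligodendrocytes. Opalin had 1 UMI in 2334 microglia, 1 in 1551 endothelial cells and 0 in the other 4 large types. Ugt8a had 4 UMIs in microglia, 3 in ependymal cells, 1 each in endothelial cells and border macrophages and 0 in choroid plexus cells and astrocytes. Mog had 9 UMIs in microglia, 3 each in border macrophage, endothelial and choroid plexus cells, 1 in astrocytes and 0 in 665 ependymal cells. With 3 UMIs over the type in place of 0, Mog was at least 1986-fold higher in CPM in oligodendrocytes than in ependymal cells. Among the 4 small types, Mbp stood out in T or NK cells with 32 UMIs in 27 cells, of which 14 were in 1 cell.

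Of 30 further oligodendrocyte and myelin genes, 29 were at least 8-fold higher in oligodendrocytes, the other being Mpzl1 at 2.12 (1.60 to 2.77). Above the common ratio in none of the 6 types were 7 genes, among them Nkx6-2, Hapln2, Fa2h, Olig2, Gjb1 and S1pr5, while 14 genes were above in 1 to 3 types, and 9 in 4 or more. Among those with the highest oligodendrocyte level were Trf, an iron carrier (4725 CPM), Apod, a lipid carrier (4574), Cnp, a phosphodiesterase of the sheath (2937), Tspan2, a tetraspanin (1351), and Qdpr, a pteridine reductase (1343). Cnp, also above in all 6, stood at 0.013 of the oligodendrocyte level in microglia and 0.00262 in endothelial cells, whereas for Mbp the values were 0.021 and 0.0144. Cnp was also the lower in border macrophages, choroid plexus cells and astrocytes, in the last with intervals that overlapped. In ependymal cells the order was reversed, at 0.0319 (0.0289 to 0.0352) for Cnp and 0.0171 (0.0153 to 0.0192) for Mbp.

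Across oligodendrocytes and the 10 gated types, the genes outside both lists whose profile was most like the mean of the 9 were Cyp2j12, Klk6, Nipal4, Fam236c, Map6d1, Serpind1, Wnt3 and Sgk2. Pearson r of log2 of CPM plus 1 was 0.986 for Cyp2j12 and 0.980 for Sgk2, over 11 types of 1 library and among 12443 genes. Of the 9 genes themselves, Opalin (0.984) and Mog (0.977) were the most like that mean, and Cldn11 (0.831) and Mal (0.789) the least. Each of the 9 is part of that mean, which raises its r. The 8 genes from Cyp2j12 to Sgk2 had 22.1 to 222 CPM in oligodendrocytes.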

How the data were processed

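UMI counts per gene and barcode were deposited by the authors, who, per the submitters' processing notes, used Cell Ranger 8.0.1 and the build GRCm39. Which annotation they counted on is not given here. The chemistry counts transcript 3′ ends, per the labels' protocols. Empty droplets were not analysed here, so free RNA was not measured directly. The genes and lists were chosen with earlier results of these data known.

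From the counts, UMIs were summed per gene and cell type, with exact Poisson, Clopper-Pearson and conditional binomial 95% intervals in scipy 1.17.1, numpy 2.4.6, pandas 2.3.3 and Python 3.11.15. A type needed at least 3 of its listed markers and a lead of 2 over any other type. This rule was set after the data were seen, 1 listed marker, Fcrls, was not matched, and 21 of the 26 B cells lay at its threshold. Doublets were called with Scrublet in scanpy 1.11.5 at an expected rate of 0.05 and kept. For shares at equal depth, cells were thinned to 2000 UMIs and shallower cells left out, which kept 2293 of 2334 microglia and 1350 of 1551 endothelial cells. A value of 0 is given with the level of 3 counts. With 1 library, no test across samples was made.

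Genes named are the 9 members in every type, the 6 of 30 other oligodendrocyte genes with the highest CPM, and the 8 genes most like the members of all genes reaching 20 CPM in some type; 1 gene this rule names is not reported here, and others were chosen after their values were seen, as were the ratio of Mbp to Mobp, their joint detection, the subsets of endothelial cells, the Cd22 comparison and the promoters shown. Comparison with all genes used 15235 genes of at least 10 UMIs for the 8-fold call and 1615 with at least 1 UMI per oligodendrocyte for the common ratio. The ratio call was tested on simulated data with 200 changed genes: at the size of microglia, intervals held the truth for 97.2% of 1615 genes, 93% of 5-fold and 100% of 20-fold changes were called, with 13 of 1415 unchanged genes; at the size of astrocytes the values were 99.0%, 20%, 78% and 10. The simulation drew independent Poisson counts and was given the true common ratio. In the data that ratio was the median of the 9 genes, and Mobp was more frequent in cells with Mbp. The simulated rates therefore do not carry over to the calls made here. Alternatives varied the cell filter, doublets, other genes and markers required, weighing of cells, depth and the fold over the common ratio.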

Additional observations from a re-analysis of the deposited data

Results flagged for a closer look

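The 187 barcodes removed by the filter on genes and mitochondrial UMIs were outside the comparisons and still held myelin RNA. In the 185 of them with fewer than 6 of the 9 genes, Mbp came to 1184 UMIs per 1000 barcodes (1032 to 1351), above the 631 in microglia, although these barcodes had a median of 608 UMIs. Mobp came to 286 per 1000 (215 to 375), against 139 in microglia. One barcode of 798 UMIs held 122 of the 219 Mbp and 32 of the 53 Mobp UMIs. Without it, Mbp was at 527 (428 to 643) and Mobp at 114 (70.6 to 174) per 1000. Opalin and Ugt8a had 0 UMIs in the 185 barcodes, where 3 UMIs would make 16.2 per 1000.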

How the results depend on the processing

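No paired analysis was possible because the library was alone in its group. The summed level of the 9 genes in oligodendrocytes was 13161 CPM, and moved to 3708 with 2 other members required, 19573 with 4, 20588 with 5 (added after seeing the data) and 14709 without called doublets; the stricter settings admit fewer barcodes with few other oligodendrocyte markers. The 942 UMIs per 1000 microglia moved to 901 with 2 other members and to 296 in cells thinned to 2000 UMIs, which keeps fewer UMIs by construction. The 27 pairs of gene and type above the common ratio were 24 to 29 under the planned settings, and 17 when only types of at least 100 cells counted, which leaves fewer pairs. In cells thinned to 2000 UMIs, an alternative added after seeing the data for these pairs, the count was 26, and 27 with 5 other members. Of 90 values for 9 pairs named in the text under the alternatives, 83 kept their call and none changed direction. All 9 pairs were called in the main setting. Asking a fold of 2 or 5 left the values as they were, so no direction could change there. At a fold of 2 no call could be lost either. Mal in ependymal cells and astrocytes, called with 5 others but not with 3, was not among the 9. Of the 90 values, 7 were no longer called, and these concern 2 pairs. Mal in choroid plexus stood at 1.78 times the common ratio without called doublets, 3.09 where 5 was asked, and 1.46 (3 others) or 2.82 (5 others) in thinned cells. Mag in border macrophages stood at 4.32 where 5 was asked, and 3.24 or 1.25 in thinned cells. Mal in endothelial cells was called throughout, at 170.2 to 827 times. The highest of these multiples was against a common ratio set by 1 Cldn11 UMI in 1350 thinned cells. The number of cells limits the small types of 21 to 29 cells, since in 3 of the 4 the common ratio was 0.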
